A study of Saccharomyces cerevisiae with 2 samples.

Results

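The 55 genes described here build, remodel or watch over the cell wall of budding yeast, Saccharomyces cerevisiae. The rule that chose them uses gene names and no measured value, although it was written with earlier results of these data known. All 55 were found among the 5449 yeast genes read on the array. WSC1 was found under its other name, SLG1. Each gene was read by 1 probe set, and none of these probe sets carries the suffix letter that marks possible cross-hybridization. Total RNA came from a pair of strains of the BY4741 background. Both are of mating type a, both carry his3delta1, leu2delta0, met15delta0 and ura3delta0, and in both the chromosomal ACS2 gene is replaced by HygMX. ACS2 encodes an acetyl-CoA synthetase that makes acetyl-CoA from acetate. A centromeric URA3 plasmid supplies ACS2 itself in the control strain and the temperature-sensitive allele acs2-Ts1 in the other. Cultures in YPD, a rich medium, were held at 37 °C for 60 min before RNA was taken. Each strain is represented by 1 deposited sample, which the authors formed as the mean of 2 arrays, and no sample from a lower temperature was analysed here. The strain, its plasmid and its allele therefore cannot be told apart as the source of a difference, and no test, error or p-value is possible. The comparison addresses how the transcript profile differs in the acs2-Ts1 mutant. "Higher" and "lower" below describe the acs2-Ts1 sample relative to the ACS2 sample.

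As background, the yeast wall is a mesh of beta-1,3-glucan to which beta-1,6-glucan, chitin and mannoproteins are linked. Glucan is spun out at the plasma membrane by a synthase that the GTPase Rho1 switches on, and enzymes in the wall then cut and rejoin the chains. Sensors that span the membrane report stress on the wall through Rho1 and protein kinase C to a cascade of MAP kinases ending in Slt2, which acts on the transcription factor Rlm1. Heat is among the conditions known to activate this cell wall integrity pathway. At the end of division, glucanases and a chitinase made mainly by the daughter cell dissolve the septum.

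Signal shifted downward across the array, and the wall genes have to be read against that shift. The median log2 ratio of all 5449 genes was -1.12, so the middle gene of the array read 2.18-fold lower. The authors scaled the samples on controls, and the 27 bacterial and phage hybridization control probe sets had an SD of 0.17 in their log2 ratios. Those controls may be the ones the scaling was fitted on. Ratios also depended on level, and an additional value with this trend removed by a lowess curve over all genes is given where it matters. Probe sets for genes of another yeast marked the background, whose 95th percentile was 49.1 in the ACS2 sample and 46.3 in the acs2-Ts1 sample. Among genes that should give no signal in these strains, LEU2 read 68.0 and 77.5 and MET15 read 47.9 and 77.5, in the order ACS2 and acs2-Ts1. Apart from MET15 in the ACS2 sample, these readings exceeded the background limits, so a value just above a limit need not mean a transcript. HIS3, whose allele is his3delta1 and not a delta0 allele, read 1650.1 and 882, and what its probe set reads in these strains was not tested. The alpha-cell pheromone genes MFALPHA1 and MFALPHA2 read at most 64.5, whereas STE3 read 214 and 59.0 and SAG1, the alpha-agglutinin gene, read 496 and 433. Of the a-cell genes, STE2, for the receptor of alpha factor, read 3398 and 2089.9. All 5 a-cell genes ranged from 761 to 4027 in the ACS2 sample and from 316 to 2725 in the acs2-Ts1 sample. The dimmest of them thus read below SAG1 in the acs2-Ts1 sample.

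The wall genes as a whole lay apart from that downward shift. Their median log2 ratio was 0.04, which is 1.17 relative to the all-gene median and 0.17 with the trend removed. Of the 55 genes, 29 were higher and 26 lower, against 13.6% and 86.4% of all genes. At least 2-fold higher were 10 of 55, against 3.67% of all genes. At least 2-fold lower were 13 of 55, GAS4 with a value below background among them, against 55.9% of all genes. Centred on the all-gene median instead, 30 of the 55 passed 2-fold upward and 1, GAS4, downward, against 16.4% and 6.61% of all genes. Of the 55, 45 lay above that median. The sign of the wall gene median itself is not firm: without the 11 genes that read above 10000 in a sample, it was -0.38, beside -1.14 for all genes left. The classes differed as measured: by median, cell separation genes were the highest and signalling genes the lowest. With the trend removed the cell separation median was 1.51. The other class medians then lay close together, from 0.00 for glucan remodelling enzymes to 0.20 for glucan synthesis. Of the 55 genes, GAS4 alone fell below the background limit, in the acs2-Ts1 sample.

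**Figure D1:**
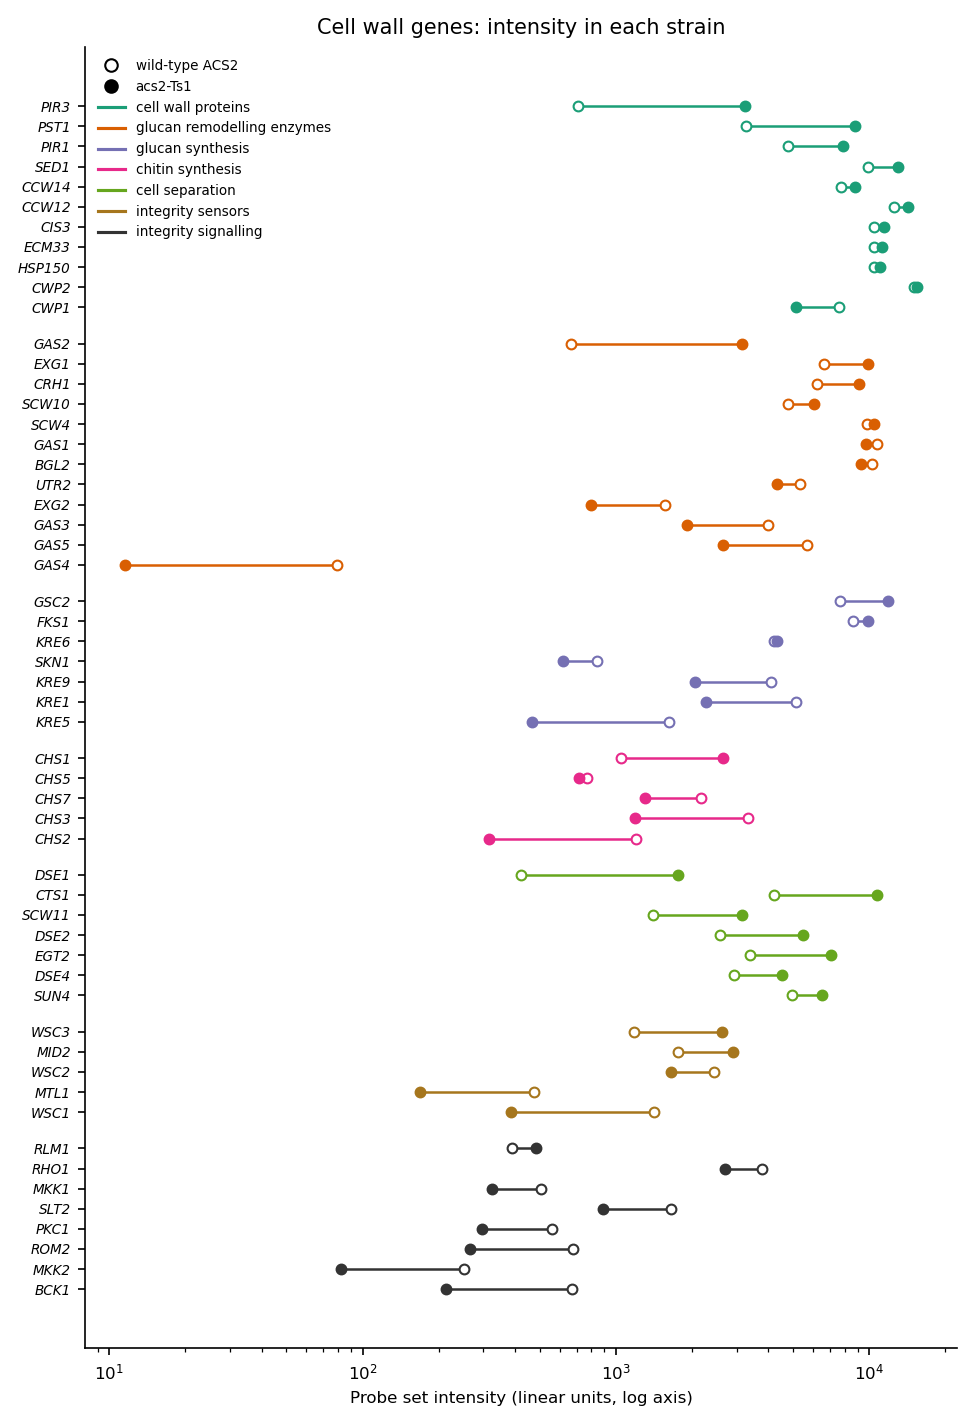
Intensity of each of the 55 genes, on a log axis in linear intensity units, with an open point for the ACS2 sample and a filled point for the acs2-Ts1 sample, grouped by class. All 7 cell separation genes have the filled point to the right, whereas in the signalling class only RLM1 does; each point is 1 deposited sample, so there are no error bars.

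Position along the intensity range moved with these results. Of the 55 genes, 29 fell above the 90th percentile of all genes by mean level, where ratios across the array were least negative. In that range the median log2 ratio was 0.18 for wall genes and -0.19 for the other genes, and 4 of the 29 wall genes were at least 2-fold higher, against 5.51% of all genes there. Between the 80th and 90th percentiles the 10 wall genes had a median of 0.94 and the other genes -0.82. There, 5 of 10 wall genes were at least 2-fold higher, against 8.99% of all genes. From the median level to the 80th percentile, 12 wall genes had a median of -0.90 beside -1.13. The 4 wall genes below the median level, the sensor gene MTL1, the kinase genes BCK1 and MKK2, and GAS4, were all at least 2-fold lower, against 68.2% of all genes there. Across the 55 genes the Spearman correlation of ratio with level was 0.43, and across all 5449 it was 0.34. These values are across genes of the same samples and carry no p. In 11 wall genes a sample read above 10000, in a range whose top was 19111 for ACS2 and 17223 for acs2-Ts1. Whether such bright probe sets understate a difference was not tested.

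The 7 cell separation genes were all higher, with a median log2 ratio of 1.08 (2.21 after centring on all genes, 1.51 with the trend removed). Over all genes, 13.6% were higher and 3.67% at least 2-fold higher, whereas 5 of these 7 genes passed 2-fold. In RNA from a whole culture, more cells that express these genes and more RNA per cell cannot be told apart. DSE1, named for its expression in daughter cells, read 422 in the ACS2 sample and 1756 in the acs2-Ts1 sample. That is 4.16-fold higher, a ratio above that of 99.2% of all genes. CTS1, the chitinase that dissolves the chitin of the septum, read 4199 and 10707, a 2.55-fold higher value. SCW11, a wall protein related to glucanases, read 1404 and 3151 and was 2.24-fold higher. DSE2, a secreted daughter-cell protein, read 2577 and 5465, or 2.12-fold higher. EGT2, which takes part in separation of mother and daughter, read 3395 and 7047, or 2.08-fold higher. All 5 of these proteins act at or near the septum, and the remaining separation genes were higher by less than 2-fold. DSE4, an endo-beta-1,3-glucanase of the septum, read 2923 and 4530.0. SUN4, of the SUN family of septum proteins, read 4961 and 6526. With the trend removed all 7 were still above the curve, by 0.63 for SUN4 up to 3.11 for DSE1.

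A list of 10 further genes, made up of SWI5, the kinase network around Cbk1 and more daughter-cell genes, was mixed. At least 2-fold lower were 5 of 10, near the 55.9% of all genes, and AMN1, a daughter-cell gene for an antagonist of mitotic exit, was at least 2-fold higher. The list median was -0.98, or 0.15 after centring on all genes, and 7 of 10 genes lay above the trend curve, with a median of 0.32. AMN1 read 1800.3 and 4491, which is 2.49-fold higher. MOB2, for the partner of the kinase Cbk1, read 543 and 123, or 4.42-fold lower. SWI5, for a transcription factor of late mitosis, read 332 and 109, or 3.05-fold lower, and TAO3 of the kinase network was 2.79-fold lower. With the trend removed AMN1 was at 1.89, MOB2 at -0.73, SWI5 at -0.16 and TAO3 at -0.42. Other daughter-cell genes of the list were ASH1, for a repressor of mating-type switching, at 796 and 1012, and DSE3, at 372 and 368, which lay 1.39 and 1.28 above the trend curve.

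**Figure D2:**
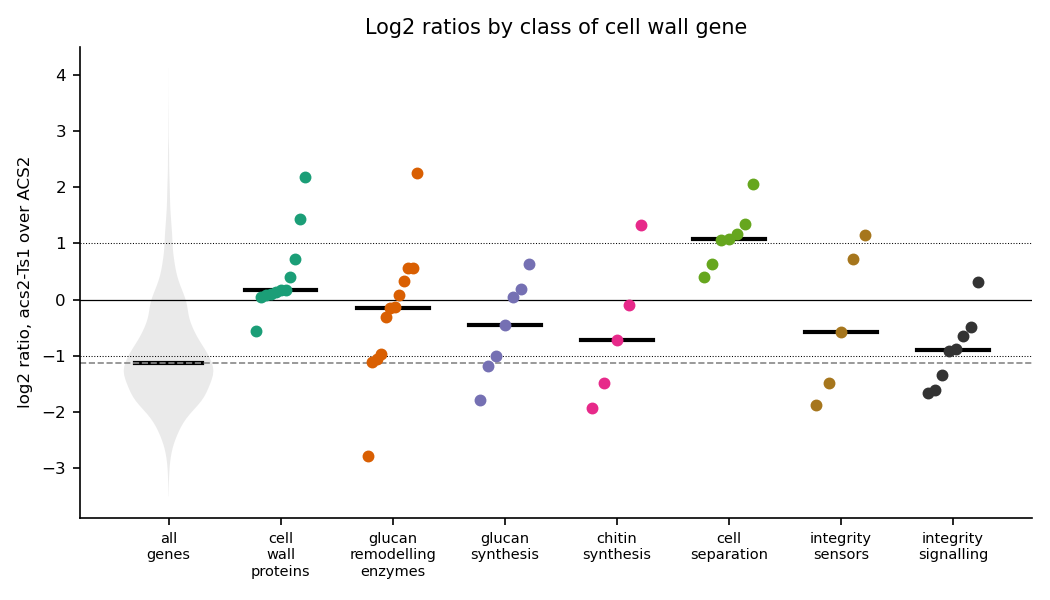
Log2 ratio of acs2-Ts1 over ACS2 for the 55 wall genes by class, 1 point per gene, with black bars at class medians, a grey violin for all 5449 genes, dotted lines at a 2-fold difference and a dashed line at the all-gene median of -1.12. The class medians run from 1.08 for cell separation to -0.90 for integrity signalling, and all 7 lie above the dashed line, so the negative ones turn positive when centred on all genes.

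Among the 11 structural wall proteins, 10 were higher and CWP1 alone was lower, with a class median of 0.18 (1.30 after centring on all genes, 0.06 with the trend removed). Over all genes 13.6% were higher, and above the 90th percentile by level 35.7% were. With the trend removed 9 of the 11 lay above the curve, against 49.1% of all genes. CWP2, at -0.19, then lay below it together with CWP1. Only PIR3 and PST1 passed 2-fold, against 3.67% of all genes upward. PIR3, of the family of repeat proteins joined directly to beta-1,3-glucan, read 710.5 in the ACS2 sample and 3238 in the acs2-Ts1 sample. That 4.56-fold higher value exceeded the ratio of 99.4% of all genes. PST1, a wall protein anchored through a GPI lipid and a known target of the integrity pathway, read 3257 and 8772, or 2.69-fold higher. The other repeat proteins were not as far apart between samples: PIR1 read 4771 and 7895, a log2 ratio of 0.73. HSP150 read 10418 and 11030, and CIS3 read 10439 and 11459. Within this family, then, PIR3 stood 1.46 above PIR1 on the log2 scale, a difference that a factor common to all genes leaves unchanged. With the trend removed the difference was 2.13.

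The other GPI-anchored wall proteins differed by less than 1.5-fold between the samples. SED1, known as a major wall protein of resting cells, read 9922 and 13042. CCW12, for an abundant mannoprotein of growing cells, read 12590.1 and 14242, and CCW14, of the inner wall layer, read 7750.0 and 8775. ECM33, which is needed for wall integrity, read 10434 and 11224. The log2 ratios of these 4 genes lay between 0.11 and 0.39, beside the SD of 0.17 of the hybridization controls. CWP2 read 15060 and 15509.5, whereas CWP1, for the related mannoprotein, read 7582 and 5140.4 and was 1.47-fold lower. Relative to all genes even CWP1 was higher, by 0.56, and with the trend removed it was lower, at -0.37. Without PIR3 and PST1 the other 9 genes had a median of 0.13.

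Of the 12 glucan remodelling enzymes, GAS2 was at least 2-fold higher and GAS3 and GAS5 at least 2-fold lower, while GAS4 read below background in the acs2-Ts1 sample. The class median was -0.15, which becomes 0.98 once centred on all genes and 0.00 above the trend curve. The family of beta-1,3-glucanosyltransferases, which elongate glucan chains in the wall, holds all 4 of these genes. GAS1, the main enzyme of growing cells, read 10735 and 9739. GAS3 read 3979 and 1913 (2.08-fold lower), and GAS5 read 5679 and 2644 (2.15-fold lower). The values of GAS3 and GAS5 amount to 0.07 and 0.02 after centring on all genes, so their direction turns with the scaling.

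GAS2, an enzyme known for its role in the spore wall, was the highest of all 55 genes. It read 663 in the ACS2 sample and 3158 in the acs2-Ts1 sample, or 4.76-fold higher. GAS4, its partner in spore wall formation, read 79.5 and 11.6, the latter under the background limit, and no fold is given. A list of 10 sporulation genes showed no such level: its highest values were 127 in the ACS2 sample and 117 in the acs2-Ts1 sample, and 3 and 5 of the 10 lay under the background limits. Of these 10 genes, 3 were higher and 7 lower, and SPR3, for a septin of the forming spore, had the highest ratio at 58.0 and 117.

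Enzymes that trim or cross-link glucan were within 2-fold in every case. EXG1, the main exo-beta-1,3-glucanase, read 6647 and 9863, a log2 ratio of 0.57, while the related EXG2 read 1569 and 798, at -0.97. CRH1 and UTR2 encode transglycosylases that join chitin to glucan. CRH1 read 6229 and 9154, and UTR2 read 5350.1 and 4327. The samples were thus ordered one way in EXG1 and CRH1 and the other way in EXG2 and UTR2, although after centring on all genes all 4 were higher. BGL2, a glucanosyltransferase abundant in the wall, read 10284 and 9260. SCW4, a glucanase-like wall protein, read 9852 and 10459, and its relative SCW10 read 4788 and 6039.

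The 7 glucan synthesis genes were mixed, and they had a median of -0.45, or 0.68 after centring on all genes and 0.20 above the trend curve. FKS1, the catalytic subunit of the synthase in growing cells, read 8662 and 9912. GSC2, also called FKS2, the alternative catalytic subunit known to be induced by wall stress and heat, read 7646 and 11829, a log2 ratio of 0.63. Both synthase genes were higher with and without centring, and GSC2 exceeded FKS1 by 0.44 in log2 ratio. In the beta-1,6 group, KRE5, an ER protein needed for this polymer, read 1618 and 466 and was 3.47-fold lower. KRE1, a surface protein of beta-1,6-glucan assembly, read 5142 and 2278 (2.26-fold lower), and KRE9, of the same assembly, read 4117 and 2050.4 (2.01-fold lower). KRE5 was lower after centring on all genes too, at -0.67, whereas KRE1 and KRE9 were at -0.05 and 0.12. KRE6 and SKN1, related genes that also serve beta-1,6-glucan synthesis, did not follow KRE5. KRE6 read 4208 and 4340.1, and SKN1 read 840.3 and 617, which put them 0.41 and 0.66 above the trend curve.

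The chitin genes went in different directions by synthase. CHS1, which makes chitin for repair at cell separation, read 1048 in the ACS2 sample and 2649 in the acs2-Ts1 sample, or 2.53-fold higher. CHS2, the synthase of the primary septum in dividing cells, read 1206 and 315, or 3.83-fold lower. CHS3, which makes most of the chitin of the wall, read 3317 and 1188, or 2.79-fold lower. Relative to all genes these values were 2.46, -0.81 and -0.36. The genes for delivery of Chs3 were within 2-fold as measured. CHS7, for its exit from the ER, read 2161 and 1306, and CHS5, for its transport to the surface, read 767 and 718. Relative to all genes CHS5 was at 1.03 and CHS7 at 0.40, and with the trend removed at 1.00 and 0.09. The class median was -0.73, which becomes 0.40 once centred on all genes and 0.09 above the trend curve.

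The sensors of the integrity pathway differed among themselves. WSC3 read 1181 in the ACS2 sample and 2622 in the acs2-Ts1 sample, or 2.22-fold higher. WSC1, usually regarded as the leading sensor of heat stress on the wall, read 1418 and 385, or 3.68-fold lower. WSC2 read 2443 and 1647, lower as measured but at 0.55 once centred on all genes and 0.17 above the trend curve. The Wsc sensors therefore spanned -1.88 to 1.15 in log2 ratio, with WSC3 above and WSC1 below the all-gene median. MID2, a sensor of another family, read 1753 and 2893, a log2 ratio of 0.72. MTL1, its relative, read 476 and 169, or 2.82-fold lower. Relative to all genes MTL1 was at -0.37, and with the trend removed at -0.10. The 5 sensors had a median of -0.57, which turns to 0.55 once centred on all genes and 0.17 above the trend curve.

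Transcripts for the cascade below the sensors were lower in 7 of 8 cases as measured, close to the 86.4% of all genes that were lower, with a median of -0.90 that turns to 0.22 once centred on all genes and 0.05 above the trend curve. RHO1 read 3777 and 2702, and ROM2, for its exchange factor, read 678 and 266 (2.55-fold lower). PKC1, for protein kinase C, read 559 and 295. BCK1, at the top of the MAP kinase cascade, read 670.4 and 213 (3.15-fold lower). These values lay on either side of the all-gene median, at 0.64 for RHO1, -0.22 for ROM2 and -0.53 for BCK1 relative to it. With the trend removed ROM2 was at -0.09 and BCK1 at -0.36. MKK1 and MKK2 encode the redundant kinases in the middle of the cascade. MKK1 read 507 and 323, and MKK2 read 251 and 81.9 (3.06-fold lower). Relative to all genes MKK2 was at -0.49, and with the trend removed at -0.16. Its acs2-Ts1 value was near the 77.5 that the deleted LEU2 and MET15 read in that sample. SLT2, the MAP kinase at the end, read 1644 and 894. RLM1, the transcription factor that Slt2 activates, was the only gene of this class with a higher reading, 389.6 and 485. Its log2 ratio of 0.32 was above that of 91.6% of all genes, and it lay 1.57 above the trend.

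Related genes are compared most directly as pairs, because an error of scaling common to all genes cancels in the difference of their log2 ratios. The 14 pairs were drawn up after the values had been seen, and the differences have no error and are descriptions. In 6 of 14 pairs the ratios differed by at least 1 on the log2 scale. A factor common to all genes cannot change that count, but a correction that varies with level can. Removing the trend takes EXG1 and EXG2 below that mark. How often genes paired at random differ by as much was not computed. The genes of a pair lay on opposite sides of 0 in 7 of 14 as measured, in 2 once centred on all genes and in 3 with the trend removed. GAS2 exceeded GAS1 by 2.39, MID2 exceeded MTL1 by 2.22 and WSC3 exceeded WSC2 by 1.72. With the trend removed these differences were 3.32, 1.51 and 1.78. EXG1 exceeded EXG2 by 1.54, which narrowed to 0.63 with the trend removed, and PST1 exceeded ECM33 by 1.32, which became 1.65. At the other extreme, HSP150 and CIS3 differed by -0.05, and GAS3 and GAS5 by 0.05.

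**Figure D3:**
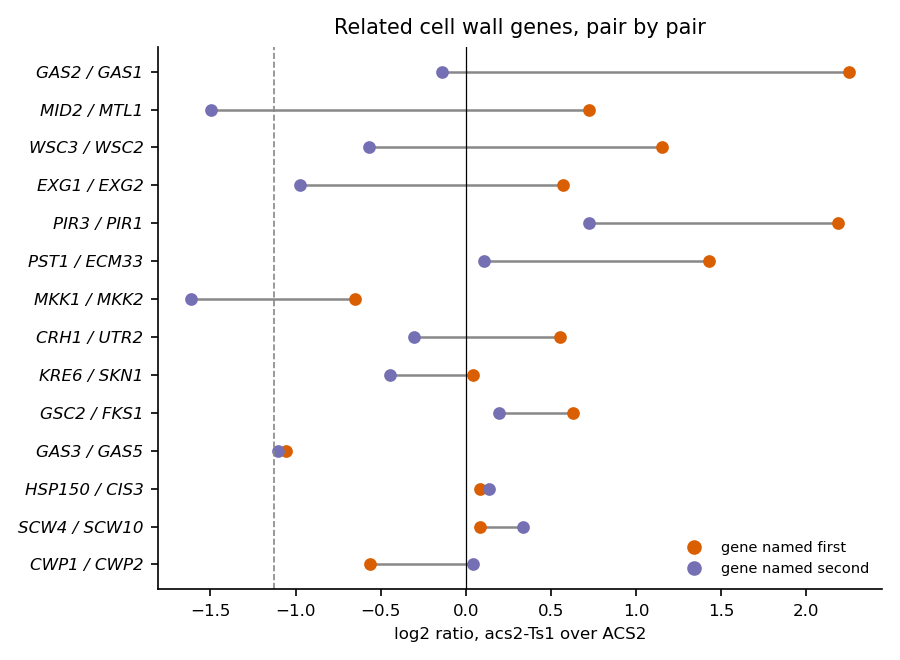
Log2 ratio of acs2-Ts1 over ACS2 for 14 pairs of related wall genes, with the gene named first in orange, the gene named second in purple, a solid line at 0 and a dashed line at the all-gene median. The pairs are ordered by the difference of their ratios, from GAS2 over GAS1 at 2.39 down to CWP1 over CWP2 at -0.60.

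Further genes of the wall and its pathway were read in 4 lists beside the separation regulators, and 56 of all 71 genes in these 5 lists (78.9%) were lower as measured, against 86.4% of all genes. Of 17 wall proteins and yapsins, 1 passed the 2-fold mark upward and 2 downward, with a median of -0.26 (0.87 after centring on all genes). YPS1, a GPI-anchored protease induced by wall stress, read 3504 and 9228, or 2.63-fold higher, beside YPS6 at 569 and 234. Of 14 genes for glucan and chitin assembly, 8 passed it downward and 1 upward, with a median of -1.20 (-0.08 after centring on all genes). The lowest of these were CNE1, for calnexin of the ER, which was 4.76-fold lower, and KEG1, for an ER protein that works with Kre6, which was 4.53-fold lower. FKS3, a relative of the glucan synthase subunits, read 221 and 481. Of 10 genes for chitin synthase traffic and UDP-GlcNAc, the precursor of chitin, 7 passed it downward and 0 upward, with a median of -1.08 (0.04 after centring on all genes). YEA4, for a UDP-GlcNAc transporter, was 3.98-fold lower, and QRI1, for the enzyme that forms UDP-GlcNAc, was 3.20-fold lower. Of 20 further integrity pathway genes, 9 passed it downward and 0 upward, with a median of -0.94 (0.18 after centring on all genes). CRZ1, SWI6 and TUS1 were the lowest of these, at 3.62-fold, 3.57-fold and 3.49-fold lower. Across these 4 lists and the separation regulators, 3 of 71 measured genes (4.23%) passed it upward and 31 (43.7%) downward, against 3.67% and 55.9% of all genes.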

How the data were processed

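Biotin-labelled total RNA of 2 samples, 1 per strain, was measured on Affymetrix arrays. The deposited values are probe set intensity values on a linear scale. RMA background correction of 4 arrays by the authors came first, per the labels and the design text; they then averaged the 2 arrays of each strain and normalized the means on controls with a lowess curve, because expression shifted globally. No software version or list of controls is given in the sources used here. The titles of both samples read as wild type, so groups were taken from the genotype field.

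Of 10928 probe sets, 5498 matched a gene of the RefSeq R64 table through the platform annotation, giving 5449 genes. Each gene was read by its brightest probe set, taking those without a suffix letter first, and log2 ratios were taken without a pseudocount. The background limit was the 95th percentile of 1746 probe sets outside the species. The trend with level was a lowess curve of span 0.3, whose script was tested on simulated data. Python 3.11.15, pandas 2.3.3 and statsmodels 0.14.6 were used. With 1 sample per group nothing was tested, and the number of arrays limits the precision. The members and lists were chosen with earlier results of these data known. All 55 members are named, and of other lists up to 3 genes at each end past 2-fold. Named besides are ASH1 and DSE3, neither of them past 2-fold, and genes read as checks of the strains. A gene of a planned list is not reported here. Alternatives covered scaling, trend, pseudocount, level filters, probe set choice, background and fold threshold. A planned promoter motif count was not run, and sequences are not analysed here.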

Additional observations from a re-analysis of the deposited data

How the results depend on the processing

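With 1 deposited sample per strain no array could be left out. An error of scaling common to all genes of a sample shifts every gene together. An error in a lowess curve, such as the one the authors fitted on controls, shifts genes by amounts that vary with level. No paired analysis was possible because each strain has 1 sample. Centred on the all-gene median, the median log2 ratio of the 55 wall genes moved from 0.04 to 1.17, 30 passed 2-fold upward and 1 downward, against 16.4% and 6.61% of all genes. Under it 16 wall genes turned from lower to higher, and of these GAS3 (0.067), GAS5 (0.021) and KRE9 (0.12) had been at least 2-fold lower. With the trend removed 14 were at least 2-fold above and 1 at least 2-fold below the curve, against 12.3% and 4.06% of all genes. Here and under the all-gene centring the gene that passed downward was GAS4, with an acs2-Ts1 value below background. At a threshold of 3-fold 3 were higher and 6 lower, against 1.58% and 25.8% of all genes. At 1.5-fold 14 were higher and 18 lower, against 6.04% and 72.0% of all genes. Without genes above 10000, an alternative chosen after seeing the data, the median was -0.38 over 44 wall genes. The other planned settings on values were the hybridization control centring, 32 added to both values and background subtraction. Those on probe sets were both level filters, the mean of probe sets and omission of suffix probe sets. Under all of these the counts stayed within 9 to 13 lower and at 10 higher. The shares of all genes ran from 43.7% to 56.7% lower and from 3.27% to 5.28% higher. Single log2 ratios moved by more than the 0.17 SD of the hybridization controls in 41 of 55 wall genes with the trend removed, and in all 55 under the all-gene centring, which adds the same amount to each.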

Other observations

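Neighbours of the wall genes on the chromosome were read with the order of genes taken from the RefSeq R64 table, a comparison chosen after the values were seen. Around the wall genes that were at least 2-fold higher, 1 of 20 measured neighbours passed 2-fold upward and 9 downward, with a median log2 ratio of -0.73. Around those at least 2-fold lower, 0 of 25 passed it upward and 17 downward, with a median of -1.37. Around those within 2-fold, 6 of 56 passed it upward and 17 downward, with a median of -0.54. Wall genes that lie side by side were counted as neighbours of each other, so those 6 include PIR3 and DSE2. They also include FKS3 of the further lists, and YPR159C-A, which read 13.4 and 33.6, under the background limits. Over all genes, 3.67% passed it upward and 55.9% downward. The neighbour of a raised gene that passed upward was YLR285C-A beside CTS1, which read 292 in the ACS2 sample and 1219 in the acs2-Ts1 sample. YLR342W-A, between FKS1 and GAS2, read 688 and 1356, while RPL26A on the other side of GAS2 read 8164 and 7191. PIR3 and PIR1 are neighbours on chromosome XI, and YKL162C on the far side of PIR3 read 128 and 49.2. DSE2 and CHS7 are also neighbours, and their log2 ratios were 1.08 and -0.73. PFA3, beside EGT2, read 791 and 130.0, the lowest ratio among the neighbours of the raised genes.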
